A study of Rattus norvegicus with 18 samples.

Results

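The genes described here are 8 members of the YAP-TEAD system, namely the coactivators Yap1 and Wwtr1 (TAZ), the DNA-binding partner Tead1, the inhibitors Lats2 and Amotl2, the LIM scaffold Ajuba, and the secreted targets Ccn1 (also called Cyr61) and Ccn2 (also called Ctgf). They were taken by symbol from 38445 genes in the count files, and all 8 were among the 17853 genes tested. The members were chosen from measured values of these same libraries, their normalised counts in the 3 groups. Those values are given as a description, with no p-value for a member's difference between groups. Nothing is read from how many members a fit called. RNA was sequenced from the hippocampus of adult male wild-type Sprague Dawley rats on Lieber-DeCarli liquid diets, which the study describes as dorsal hippocampus. The Control group (n = 6) received the control diet, the Chronic Ethanol group (n = 6) received 9% v/v ethanol diet for 16 days with 0 h of withdrawal, and the Withdrawal group (n = 6) received the ethanol diet for 15 days followed by 24 h on control diet. The rats were pair-fed, and each library came from 1 animal.

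YAP1 and TAZ are coactivators that carry no DNA-binding domain of their own and reach their target genes through the TEAD transcription factors. The Hippo kinase cascade, which ends in the LATS kinases, phosphorylates both coactivators and keeps them out of the nucleus, while cell stretch, a stiff matrix and actin tension release them. Several direct targets, Lats2 and Amotl2 among them, encode inhibitors of the coactivators and so form a feedback loop. In the brain YAP1 is known from astrocytes, radial glia, ependyma, choroid plexus and vessel cells rather than from mature neurons, and CCN2 also marks neurons of the deepest cortical layer.

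TEAD factors bind the bases GGAATG or the reverse complement CATTCC. Promoters of 300 bases (250 before and 50 after the start site) came from a RefSeq promoter set on the build GRCr8. The set used held 6 of the 8 members and had no entry for Tead1 or Lats2, so neither was searched. Ccn2 held 3 matches, whose first bases lay 166, 101 and 92 bases before the start site. Ccn1 held 1 at 113 bases, Yap1 1 at 116, Amotl2 1 at 76 and Ajuba 1 at 236 bases before the start, and Wwtr1 held none. Of 33469 rat promoters of the same length, 14.2% held at least 1 match on either strand and 0.0956% (32 promoters) held 3 or more. The promoters of Ccn2 (chr1:22624565-22624864, minus strand), Ccn1 (chr2:237225640-237225939, minus strand) and Yap1 (chr8:13451388-13451687, minus strand) are printed 5′ to 3′ on the gene's strand because these genes varied most or are the factor itself. Capitals mark the GGAATG or CATTCC matches.
Ccn2: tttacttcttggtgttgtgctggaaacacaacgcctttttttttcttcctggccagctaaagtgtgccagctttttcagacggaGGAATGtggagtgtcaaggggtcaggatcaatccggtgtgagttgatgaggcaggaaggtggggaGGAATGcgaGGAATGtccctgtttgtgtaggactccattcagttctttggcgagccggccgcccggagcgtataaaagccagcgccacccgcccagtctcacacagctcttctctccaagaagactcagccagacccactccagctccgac
Ccn1: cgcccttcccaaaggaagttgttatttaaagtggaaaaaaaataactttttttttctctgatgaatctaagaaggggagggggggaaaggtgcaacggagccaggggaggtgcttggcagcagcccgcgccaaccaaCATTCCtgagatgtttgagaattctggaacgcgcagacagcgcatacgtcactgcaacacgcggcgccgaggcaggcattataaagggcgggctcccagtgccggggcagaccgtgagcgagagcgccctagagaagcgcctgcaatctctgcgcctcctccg
Yap1: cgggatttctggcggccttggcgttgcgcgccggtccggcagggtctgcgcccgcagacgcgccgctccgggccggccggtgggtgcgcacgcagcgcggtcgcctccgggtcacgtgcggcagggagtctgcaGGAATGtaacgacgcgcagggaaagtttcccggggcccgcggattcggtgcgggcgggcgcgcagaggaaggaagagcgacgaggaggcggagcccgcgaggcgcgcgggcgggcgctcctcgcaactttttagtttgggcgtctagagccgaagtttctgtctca
A further 3 motifs were searched on both strands of the 6 promoters. The AP-1 motif TGANTCA (in 7.33% of all promoters) and the CArG box of SRF (1.64%) had no match in any of them, and the STAT motif TTCNNNGAA (8.87%) had 1, in Ajuba. None of the matched bases overlapped another motif, and a match describes letters in this window and not a bound site.

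The libraries held between 30873228 and 42679748 counts on genes per rat. Levels are CPM (counts scaled by library size) after TMM normalisation, and fold changes are from limma-voom with 3 surrogate variables, unnamed sources of variation estimated from the data, in one fit of all 18 rats. The index sequences that tag the libraries fell into 3 sets. The first set tagged the 6 control rats, the second the 6 ethanol rats with withdrawal rats 1 and 2, and the third the other 4 withdrawal rats, so that index set and group cannot be told apart for the control rats. Markers of the hippocampus (Prox1, Dsp, Wfs1, Neurod6, Zbtb20) were present and summed to between 370.0 and 785 CPM in 17 rats, but to 206 CPM in withdrawal rat 5, while Fibcd1 of the same list was below 0.5 CPM in every rat. Withdrawal rat 5 also had the highest sum of fibroblast and meningeal markers (522 CPM, against 57.2 to 140.0 in the other 17 rats; Col1a2 was listed at 0 in every rat) and of deep cortex markers (55.0 CPM, against 6.57 to 34.6). The sum of choroid plexus markers (Ttr, Kl, Folr1, Aqp1, Clic6) ranged from 27.5 CPM in withdrawal rat 4 and 28.2 in withdrawal rat 5 to 5240 CPM in withdrawal rat 6, and Otx2 of this list was at or near 0 throughout. The red cell markers Alas2, Hbb and Hba-a2 summed to 78.8 to 142 CPM in control, 23.2 to 56.0 in ethanol and 23.8 to 89.6 in withdrawal rats. All 3 were called lower than control in both groups by limma-voom, and 3 in ethanol and 2 in withdrawal rats without surrogate variables. In bulk tissue more cells of a type and more RNA per cell cannot be told apart.

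Between genes, levels were compared per kilobase of counted exon length over all 18 rats. Ccn2 had the highest mean (15.8 CPM per kb, SD 11.2), followed by Lats2 (14.3, SD 2.59), Yap1 (10.8, SD 2.40), Amotl2 (9.90, SD 1.12), Tead1 (4.34, SD 0.637), Wwtr1 (4.11, SD 0.475), Ccn1 (2.6, SD 2.85) and Ajuba (1.91, SD 0.50). Each gene's range over the rats overlapped that of its neighbours in this order, with the exception of Amotl2 (lowest rat 8.39 CPM per kb) and Tead1 (highest rat 6.06 CPM per kb). Ccn2 was first in this order in the withdrawal group alone, where its mean was 24.3 CPM per kb against 13.9 for Lats2. In control rats Ccn2 (9.55) was below Lats2 (15.0) and Yap1 (9.74), and in ethanol rats it was at 13.4 against 13.9 CPM per kb for Lats2. Yap1 had a higher mean level per kb than its paralog Wwtr1, and the lowest rat for Yap1 (6.72 CPM per kb) lay above the highest rat for Wwtr1 (5.10 CPM per kb).

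Yap1 (chromosome 8, 6133014 to 6204240 in Rnor_6.0, minus strand) encodes the coactivator itself. In control rats it was between 40.2 and 49.6 CPM (median 46.0). In ethanol rats it was between 44.2 and 69.4 CPM (median 56.9), with rats 1, 4 and 6 at 69.4, 65.1 and 67.2 and the other 3 at 44.2 to 48.7. The withdrawal rats spanned 31.4 to 74.7 CPM (median 49.3). The ethanol rats thus formed 2 sets with none between, 3 above every control rat and 3 at or below the highest control rat, and all pairs of groups overlapped. Relative to control the log2 fold change was 0.10 (SE 0.08) in ethanol and 0.21 (SE 0.07) in withdrawal. Without surrogate variables these values were 0.30 (SE 0.16) and 0.08 (SE 0.16), and the difference of withdrawal from ethanol turned from 0.11 (SE 0.08) to −0.22 (SE 0.16).

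Wwtr1 (chromosome 2, 147577149 to 147693033, minus strand), the gene of TAZ, was nearly level, with 6.44 ± 0.712 CPM in control, 5.91 ± 0.620 in ethanol and 6.62 ± 0.771 in withdrawal rats (SD, n = 6 each). Tead1 (chromosome 1, 177495500 to 177714795, plus strand), which brings the coactivators to DNA, had means of 49.7 ± 3.33, 52.6 ± 5.50 and 51.6 ± 12.1 CPM. For both genes the groups overlapped. The means of Tead1 differed little, but its spread did not stay alike, since withdrawal rats ran from 38.7 to 71.7 CPM while control rats ran from 46.2 to 55.7.

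Among the inhibitors, Lats2 (chromosome 15, 37943609 to 37995175, minus strand) encodes the kinase that phosphorylates YAP1. It was 75.0 ± 11.0 CPM in control (63.7 to 89.8), 69.8 ± 11.8 in ethanol (58.4 to 85.7) and 69.7 ± 17.0 in withdrawal rats (49.2 to 92.8), so the groups overlapped almost entirely. Its log2 fold change was −0.03 (SE 0.05) in withdrawal and −0.13 (SE 0.05) in ethanol against control. Amotl2 (chromosome 8, 111210261 to 111226217, plus strand) encodes an angiomotin that tethers YAP1 at junctions. Its levels were 40.1 ± 2.41 CPM in control, 43.8 ± 2.17 in ethanol and 44.6 ± 7.50 in withdrawal rats. Withdrawal rat 5 was the highest at 58.9 CPM, and the other 5 withdrawal rats averaged 41.7 ± 2.98 CPM. In ethanol 4 of 6 rats lay above every control rat (log2 fold change 0.14, SE 0.05).

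Ajuba (chromosome 15, 33208210 to 33218456, minus strand) encodes a LIM protein that binds and restrains LATS kinases. Control rats had 4.09 to 6.31 CPM (median 4.81), ethanol rats 5.41 to 10 (median 7.12) and withdrawal rats 4.13 to 8.64 (median 6.24). The control range was thus the lowest, with 4 of 6 ethanol rats and 3 of 6 withdrawal rats above every control rat. Relative to control the log2 fold change was 0.46 (SE 0.09) in withdrawal and 0.27 (SE 0.10) in ethanol, and without surrogate variables 0.36 (SE 0.18) and 0.52 (SE 0.18), which turns the order of the 2 groups around.

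Ccn1 (chromosome 2, 251529354 to 251532312, minus strand) encodes a secreted matricellular protein that binds integrins, and its transcript is also induced as an immediate early gene. Control rats had 1.43, 2.32, 0.760, 1.51, 3.35 and 1.60 CPM in the order of their numbers. Ethanol rats had 10.3, 3.10, 7.46, 1.48, 22.9 and 5.47 CPM. Withdrawal rats had 8.20, 5.52, 1.5, 1.67, 13 and 1.48 CPM. In each of the ethanol and withdrawal groups some rats were several times above the control range and others lay within it, with 4 of 6 ethanol and 3 of 6 withdrawal rats above every control rat. The coefficient of variation was 49.0% in control, 91.5% in ethanol and 89.6% in withdrawal rats. At the counts behind these values (30 to 122 per control rat, 60 to 808 per ethanol rat) the ratio of means was 4.62 for ethanol over control and 2.86 for withdrawal over control. The log2 fold changes were 1.93 (SE 0.83) and 0.96 (SE 0.86). Single rats moved them, since without ethanol rat 5 the ethanol mean was 5.57 ± 3.50 CPM and its log2 fold change 1.10, and without withdrawal rat 5 the withdrawal mean was 3.67 ± 3.06 CPM and its log2 fold change 0.59. Within the second index set, where withdrawal rats 1 and 2 stand against the 6 ethanol rats, the withdrawal minus ethanol difference was 0.19 (SE 0.83) on the log2 scale, against −0.98 (SE 0.74) over all rats and −0.05 without ethanol rat 5.

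Ccn2 (chromosome 1, 21851657 to 21854773, minus strand) encodes the connective tissue growth factor, a widely used readout of YAP-TEAD transcription. Control rats had 24.1, 24.3, 20.4, 27.6, 23.7 and 13.9 CPM. Ethanol rats had 23.3, 26.4, 28.9, 26.1, 44.5 and 39.1 CPM. Withdrawal rats had 71.8, 31.4, 34.1, 34.4, 129 and 40.7 CPM. Every withdrawal rat was above every control rat, 3 of 6 ethanol rats were above every control rat, and withdrawal and ethanol rats overlapped. The ratio of means was 2.54 for withdrawal over control and 1.41 for ethanol over control. On the log2 scale the fold changes were 1.04 (SE 0.28) and 0.60 (SE 0.31), and withdrawal exceeded ethanol by 0.44 (SE 0.30, and within the second index set 0.62, SE 0.32). The ethanol vs control value was 0.33 without ethanol rat 5. The withdrawal vs ethanol value ran from 0.10 with 5 surrogate variables to 0.86 by DESeq2 without any. Withdrawal rats 5 and 1 carried most of the distance, as the mean fell from 56.8 ± 38.2 to 42.5 ± 16.8 CPM without rat 5, and the 5 remaining rats were still all above the control rats. The difference in mean log2 CPM from control was 1.16 with rat 5 and 0.89 without it.

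**Figure D1:**
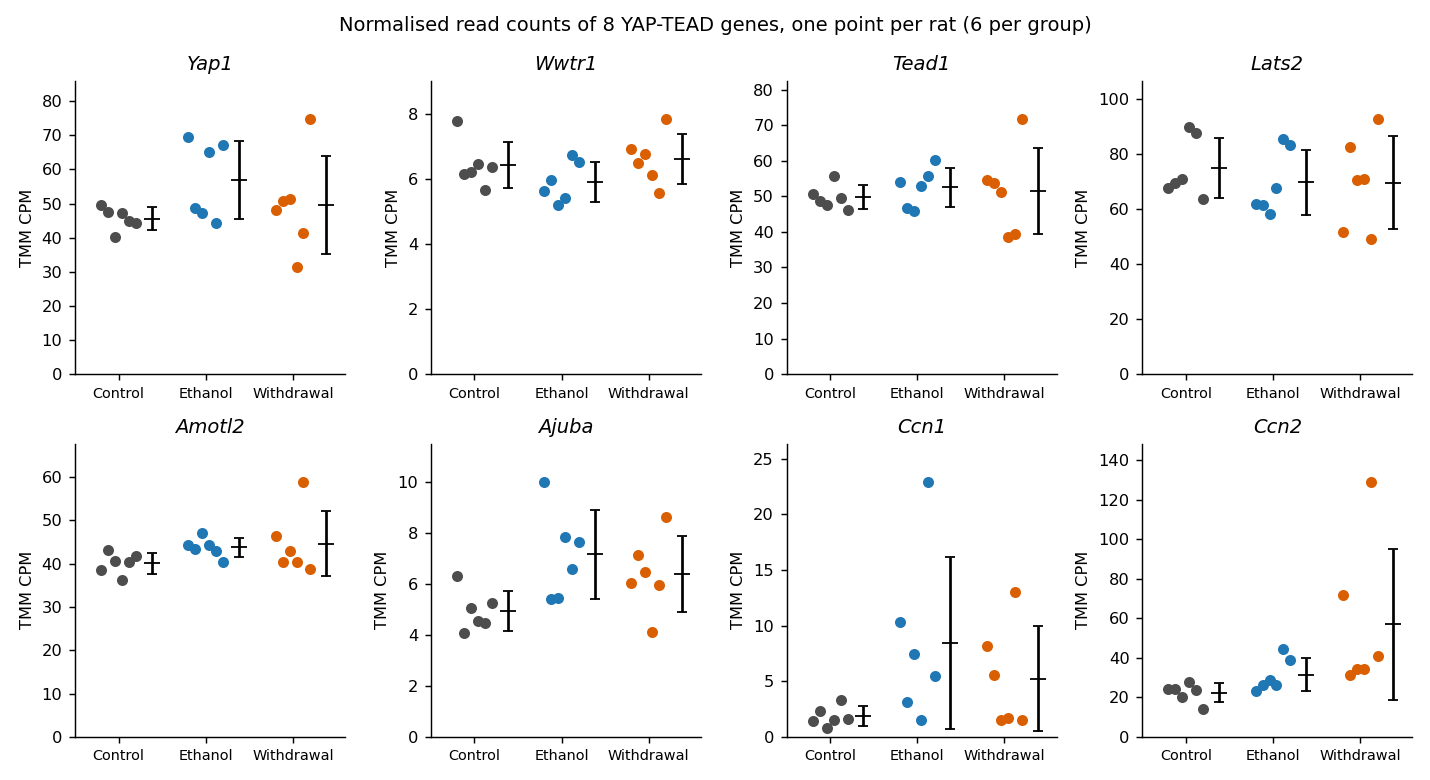
TMM-normalised CPM (y axis, from 0) of the 8 genes by group (x axis), 1 point per rat in the order of the replicate numbers, with the mean and SD as a bar to the right of each group. Ccn2 is above the control range in all 6 withdrawal rats, Ccn1 is scattered in ethanol and withdrawal rats, and Yap1 in ethanol rats splits into 3 rats from 65.1 to 69.4 CPM and 3 from 44.2 to 48.7.

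In the fit over all genes, 2 of the 8 members were at q under 0.1 between withdrawal and control, as were 5.41% of all genes tested. Without surrogate variables it was 0 of 8 by limma-voom and by edgeR and 1 by DESeq2, and without withdrawal rat 6 it was 0 of 8. Between withdrawal and ethanol it was 0 of 8 (2.72% of all genes) and between ethanol and control 0 of 8 (0.493%). Groups that did not overlap were found for 1 member, Ccn2, between withdrawal and control (1.06% of all genes), and for none between withdrawal and ethanol (1.22%) or ethanol and control (1.32%). Since the members were selected on these values, nothing is read from these counts. All 3 comparisons share groups of rats.

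**Figure D2:**
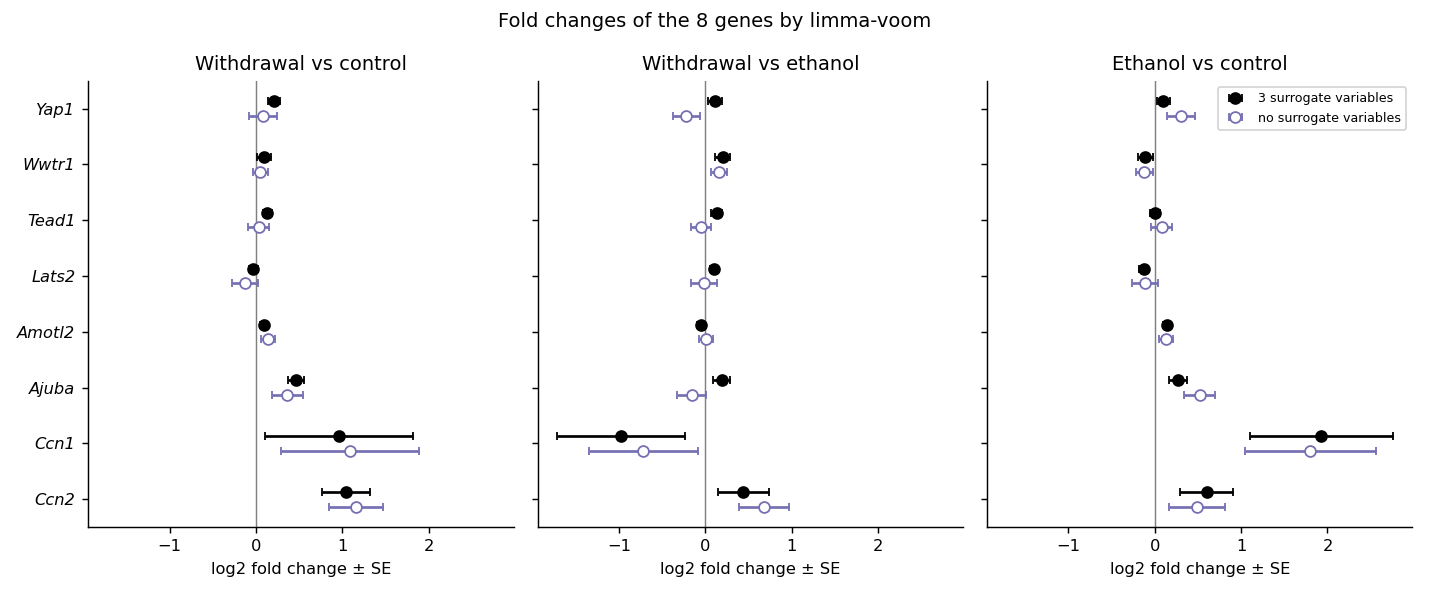
Log2 fold change with its standard error (x axis) of each gene (y axis) in the 3 comparisons, by limma-voom with 3 surrogate variables (filled) and without any (open). Ccn1 and Ccn2 have the widest errors, and Yap1, Tead1, Lats2, Amotl2 and Ajuba change sign between the fits for withdrawal vs ethanol.

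Each member's level was then set beside 12 lists of cell type or region markers and the summed immediate early genes (log2 scale, n = 18 rats). The choice of members had used their levels in these same rats. The permutations shuffled all 18 rats without removing group means, so differences between groups in the chosen values enter r, rho and p. Of 104 relations, 6 had an adjusted permutation p under 0.05 for both Pearson's r and Spearman's rho, and these concerned Yap1, Tead1, Lats2 and Amotl2. With group means removed, r with the choroid plexus markers was 0.82 for Yap1 and 0.89 for Tead1. With the deep cortex and hippocampus markers it was then −0.90 and 0.81 for Lats2, and 0.66 and −0.82 for Amotl2. Yap1 went with the choroid plexus markers. The ethanol rats high in Yap1 (1, 4 and 6) had marker sums of 5230, 3510 and 4850 CPM, the other ethanol rats 1400 to 1880, and withdrawal rat 6, the highest of all for Yap1, had 5240. Over 18 rats r was 0.76 and rho 0.78 (two-sided permutation test, p = 0.00052 and 0.0073 after adjustment over the 104 relations). Withdrawal rats 4 and 5, nearly without these markers, stood apart, and over the other 16 rats r was 0.93. Within groups r was 0.88 in control, 0.94 in ethanol and 0.87 in withdrawal rats, and within the second index set (8 rats) it was 0.91. Tead1 showed r = 0.81 and rho = 0.74 with the same markers (adjusted permutation p = 0.00052 and 0.014, n = 18), 0.72 over 16 rats, and 0.67, 0.74 and 0.94 within control, ethanol and withdrawal rats (second index set 0.54). For Ajuba r was 0.51 (adjusted permutation p = 0.16) and rho 0.73 (adjusted permutation p = 0.014), with r = 0.81 over the 16 rats and 0.31, 0.93 and 0.82 within the groups. The part of choroid plexus RNA in the levels of Yap1, Tead1 and Ajuba was not tested.

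Lats2 followed the region markers of the dissected piece. With the deep cortex markers Cplx3, Nxph4 and Foxp2 it had r = −0.90 and rho = −0.91 (permutation test, adjusted p = 0.00052 and 0.0010, n = 18), and r was −0.90, −0.90 and −0.95 within control, ethanol and withdrawal rats and −0.84 in the second index set. With the hippocampus markers r was 0.81 and rho 0.86 (adjusted permutation p = 0.00052 and 0.0010), and 0.93, 0.69 and 0.86 within the groups (second index set 0.79). Without the 2 rats farthest from the median of the markers these values were −0.90 and 0.84. Rats with the most deep cortex marker RNA, withdrawal rats 5 and 1, had the lowest Lats2, at 49.2 and 51.9 CPM. With the thalamus markers Lats2 had r = −0.46 and rho = −0.54 (adjusted permutation p = 0.20 and 0.15). Foxp2 was the largest part of the deep cortex sum, with a mean of 12.8 CPM against 6.89 for Cplx3 and 2.49 for Nxph4. Amotl2 had the opposite signs, r = 0.69 with deep cortex (rho 0.75, adjusted permutation p = 0.016 and 0.013) and −0.82 with hippocampus markers (rho −0.67, adjusted permutation p = 0.0092 and 0.039). The latter was −0.56 without withdrawal rat 5, and within control and ethanol rats it was −0.36 in each. In the second index set the 2 values for Amotl2 were 0.58 and −0.56. Whether the mix of regions accounts for these relations was not tested.

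For Ccn2 the same lists gave no relation that passed for both coefficients. With the fibroblast and meningeal markers r was 0.66 (rho 0.30, adjusted permutation p = 0.12 and 0.50, n = 18) and 0.09 without withdrawal rat 5, and with the deep cortex markers it was 0.28 (rho 0.00, adjusted permutation p = 0.50 and 1.0). Within control, ethanol and withdrawal rats the latter was −0.51, −0.95 and 0.84, so its sign differed between the groups. Withdrawal rats 5 and 1, with 129 and 71.8 CPM of Ccn2, had the highest deep cortex sums of all 18 rats (55.0 and 34.6 CPM). Withdrawal rats 2, 3 and 6, whose deep cortex sums (17.9, 16.9 and 11.1 CPM) lay within the control range (8.32 to 21.9 CPM), had 31.4, 34.1 and 40.7 CPM of Ccn2. With the hippocampus markers r was −0.54 (rho 0.18, adjusted permutation p = 0.16 and 0.82), 0.64, 0.90 and −0.98 within control, ethanol and withdrawal rats, and 0.01 without withdrawal rat 5. The part of cortical or meningeal RNA in the Ccn2 levels was not tested. With microglia markers r was −0.79 (adjusted permutation p = 0.0044) and rho −0.57 (adjusted permutation p = 0.12), and r was −0.51, −0.84 and −0.99 within the groups. Ccn1 had r = 0.60 and rho = 0.57 with the summed immediate early genes (adjusted permutation p = 0.062 and 0.12), and r was 0.77, 0.88 and 0.22 within control, ethanol and withdrawal rats.

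**Figure D3:**
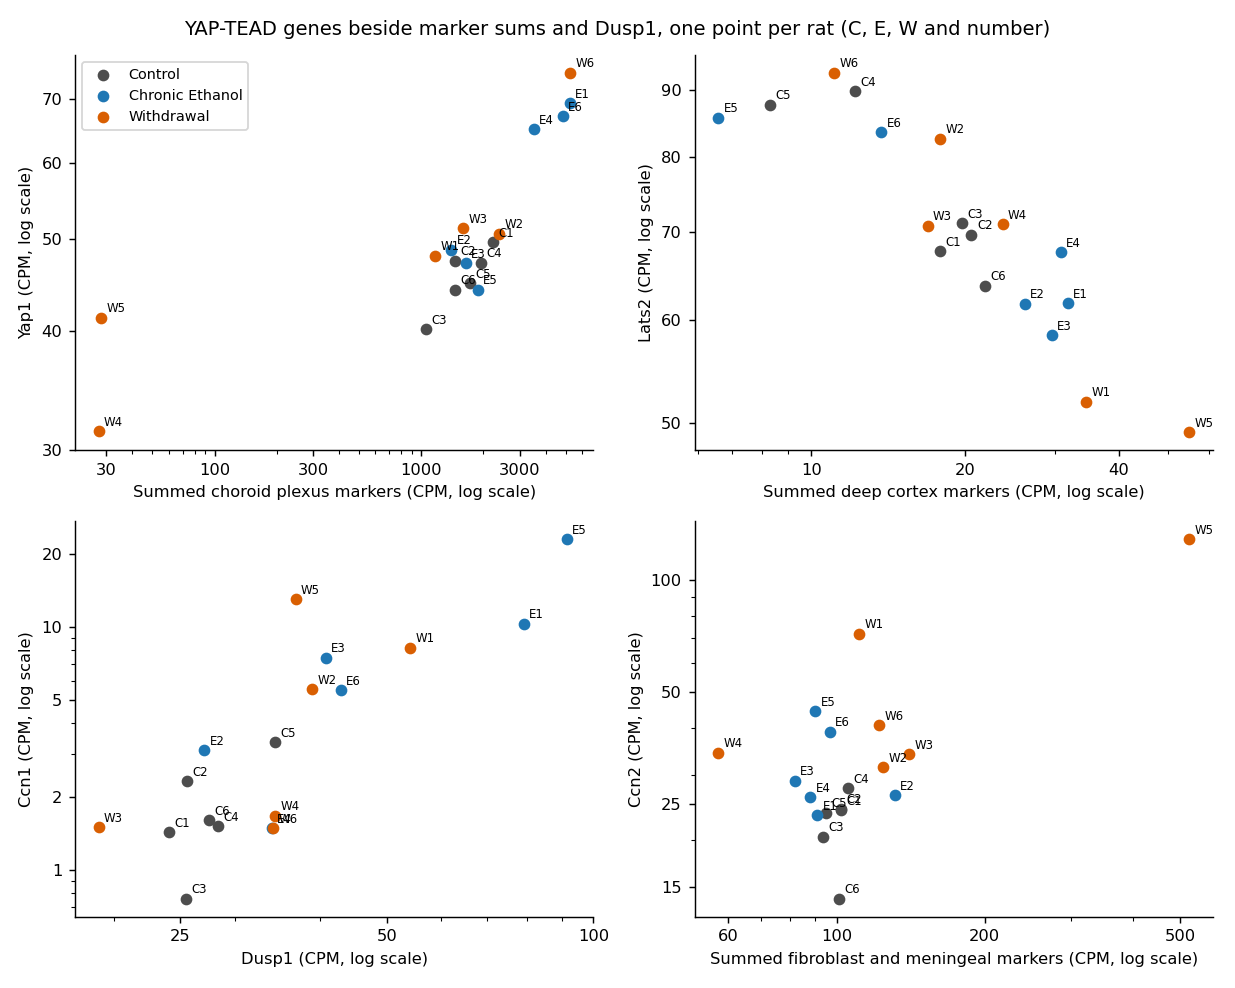
Scatter plots on log axes, 1 point per rat labelled by group letter and number, with Yap1 against summed choroid plexus markers, Lats2 against summed deep cortex markers, Ccn1 against Dusp1 and Ccn2 against summed fibroblast and meningeal markers (all in CPM). Yap1 climbs and Lats2 declines along its marker sum in all 3 groups, while withdrawal rat 5 lies alone at 522 CPM of fibroblast and meningeal markers and 129 CPM of Ccn2.

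The surrogate variables carried much of this variation. The first had r = 0.75 with the choroid plexus sum, −0.69 with deep cortex, 0.80 with Lats2 and 0.75 with Tead1 over the 18 rats, and the second had r = 0.96 with the thalamus markers.

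Genes with the pattern most like a member were taken as those with the highest Pearson r of log2 CPM over the 18 rats among 15144 genes. They are described with no p-value, since all points share libraries and the genes were picked for r. For Ccn2 they included Fn1 (fibronectin, r = 0.87), Tex30 (0.85), Smox (spermine oxidase, 0.85) and Ltbp2 (a matrix protein that binds fibrillin, 0.84). Without withdrawal rats 5 and 1 the r of these 4 fell to between 0.55 (Fn1) and 0.75 (Smox). Withdrawal rat 5 had 246 CPM of Fn1 against 47.1 to 103 in the other rats, and 42.7 CPM of Ltbp2 against 1.63 to 4.75.

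For Ccn1 the list held 2 immediate early genes, Dusp1 (a MAP kinase phosphatase, r = 0.82, rho 0.82) and Fos (an AP-1 subunit, r = 0.79, rho 0.79), beside Fance (0.81), Znhit1 (0.80) and Eif3m (0.78). Without ethanol rat 5 and withdrawal rat 5 r was 0.81 for Dusp1 and 0.74 for Fos, and after removal of the group means it was 0.74 and 0.72. Dusp1 was 91.5 CPM in ethanol rat 5 and 79.2 in ethanol rat 1, the 2 ethanol rats highest in Ccn1, and 24.1 to 34.3 CPM in control rats. Withdrawal rat 5, the second highest of all rats for Ccn1, did not share this, with 36.8 CPM of Dusp1 against 34.1 in withdrawal rat 6, whose Ccn1 was 1.48 CPM.

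For Yap1 the 5 genes were Sft2d2 (r = 0.97), Mdfic, Cgnl1 (paracingulin, a junction protein), Slc2a12 (a glucose transporter) and Cspg4b (0.96 each). Their rho was between 0.82 and 0.94, and r without withdrawal rats 6 and 4 was between 0.92 and 0.95. Slc2a12 showed the width of the pattern, with 5.64 CPM in withdrawal rat 4, 45.4 in withdrawal rat 6 and 13 to 20.3 in control rats.

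Around the members, a list of 25 further Hippo pathway genes and 17 further YAP/TAZ target genes was examined in the same fit. This list and those that follow were chosen with earlier results of these data known, so their counts are a description. None of these 42 genes passed q under 0.1 between withdrawal and control by limma-voom (lowest q = 0.12), with 11 at an unadjusted p under 0.05 (19.7% of all genes were), and edgeR with or without surrogate variables and DESeq2 called 0. Their median log2 fold change was 0.04, against 0.00 over all genes. Between ethanol and control it was also 0 of 42 by limma-voom (lowest q = 0.208), with 3 at an unadjusted p under 0.05 (12.5% of all genes), 0 by edgeR and 1 by DESeq2, and the median was −0.01. Between withdrawal and ethanol 1 of 42 fell, where 2.72% of all genes passed in either direction. It was the target Ankrd1, a cardiac ankyrin repeat protein of stretched muscle. Ankrd1 had 0.638 ± 0.313 CPM in withdrawal, 0.841 ± 0.255 in ethanol and 0.781 ± 0.217 in control rats (log2 change of withdrawal vs ethanol −1.03, SE 0.24, limma-voom q = 0.0578), which rests on 10 to 44 counts per rat. The ranges overlapped (0.242 to 1.10 and 0.617 to 1.25 CPM), with 3 of 6 withdrawal rats below every ethanol rat, and within the second index set the value was −0.39 (SE 0.38). The call was lost without ethanol rat 2, ethanol rat 3 or withdrawal rat 6. Without surrogate variables no gene of the 42 was called lower, while 1 was called higher by limma-voom and by edgeR and 2 by DESeq2.

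Per kb, the highest pathway genes were the kinase gene Map4k4 (44.8 CPM per kb), the tumour suppressor Nf2 (30.2) and the kinase gene Taok2 (19.1), and the lowest were the TEAD cofactor Vgll3 (0.355) and Tead4 (0.244). Vgll3 was 1.00 to 7.66 CPM in withdrawal rats, with the highest value again in rat 5, and 1.18 to 1.73 CPM in control rats (q = 0.236). Among the targets Fjx1 (29.8 CPM per kb) and Asap1 (21.7) were among the 3 highest and Foxf2 (1.05) and Ankrd1 (0.398) were the lowest.

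Receptors of CCN proteins were examined because CCN1 and CCN2 act through integrins. Like the other lists, this list was chosen with earlier results of these data known, so its counts and q-values are a description. Between withdrawal and control 4 of 10 rose, the integrin subunits Itgav, Itgb1, Itga6 and Itgb5, where 5.41% of all genes passed, and the list median was 0.22 (all genes 0.00). Itgav went from 121 ± 12.4 CPM in control and 123 ± 12.1 in ethanol to 145 ± 15.1 in withdrawal rats (log2 change 0.23, SE 0.05, limma-voom q = 0.0233). Itgb1, the common beta subunit, was 94.9 to 112 CPM in control and 111 to 146 CPM in withdrawal rats, with 5 of 6 above every control rat (0.21, SE 0.05, q = 0.0322). The range for Itga6 was 62.2 to 79.2 CPM in control and 71.8 to 107 CPM in withdrawal rats (0.25, SE 0.06, q = 0.0461), and that for Itgb5 was 39.6 to 45.1 and 34 to 61.4 CPM (0.24, SE 0.07, q = 0.0803). Against ethanol Itgav, Itga6 and Itgb1 rose as well (3 of 10, where 2.72% of all genes passed; 0.26, 0.25 and 0.20), and within the second index set their differences were 0.24, 0.40 and 0.19, with a limma-voom q of 0.77 each. None of the 10 was called against ethanol when ethanol rat 2, ethanol rat 3 or withdrawal rat 6 was left out, or with a replicate block. Itgb3, an integrin beta subunit, rose in ethanol against control (1 of 10, where 0.493% of all genes passed) from 0.407 ± 0.134 to 0.880 ± 0.170 CPM, with all 6 ethanol rats above all control rats, on 7 to 43 counts per rat. Its call was lost without ethanol rat 3, control rat 4 or control rat 6, and with a replicate block. Of 5 endothelial markers 3 also rose in withdrawal against control, where 5.41% of all genes passed. The sum of the 5 was 179 to 213 CPM in control and 194 to 259 CPM in withdrawal rats. Without surrogate variables 0 of 5 passed by limma-voom, while their median log2 fold change was 0.29, against 0.28 with them. Of 5 mural markers 1 rose in the same comparison (Pdgfrb, 0.25, SE 0.07, q = 0.0723), and of 5 astrocyte markers 1 rose (Gfap, 0.54, SE 0.15, q = 0.0775) and 2 fell, with 0 of 5 in each list without surrogate variables. Against ethanol, 1 of 5 mural markers rose (Abcc9, 0.32, SE 0.09, limma-voom q = 0.0859), with 0 of 5 without surrogate variables. Gfap also rose there (0.74, SE 0.17, q = 0.0578), and 1 of 5 astrocyte markers passed without surrogate variables. Of the endothelial markers 0 of 5 passed against ethanol. The part of vessel cells and astrocytes in the integrin values was not tested. Without surrogate variables none of the 10 receptors passed between withdrawal and control by limma-voom or edgeR and 3 did by DESeq2, and none passed when withdrawal rat 6 was left out. Their median log2 fold change by limma-voom was 0.21 without surrogate variables, against 0.22 with them. The share of all genes that passed without surrogate variables is not reported here, so those counts cannot be set against it.

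Of 13 genes of the actin-sensing SRF-MRTF system 1 rose in withdrawal against control, where 5.41% of all genes passed. It was Fhl2, a LIM protein of actin-linked signalling (18.8 ± 1.45 CPM in control and 23.7 ± 3.72 after withdrawal, 5 of 6 above every control rat; log2 change 0.27, SE 0.06, limma-voom q = 0.0335). The list median was 0.19, and 0 of 13 passed in the other comparisons (2.72% and 0.493% of all genes for withdrawal vs ethanol and ethanol vs control). At an unadjusted p under 0.05 by limma-voom there were 1 and 2, against 16.7% and 12.5% of all genes, and DESeq2 called 1 and 0. Of 11 TGF-beta genes 2 passed between withdrawal and control, where 5.41% of all genes passed. The receptor gene Tgfbr2 rose (0.26, SE 0.06, q = 0.0376) and Tgfbi, which encodes a TGF-beta-induced matrix protein, fell by 0.44 on the log2 scale (SE 0.09, q = 0.0284), with 5 of 6 withdrawal rats below every control rat. In the other comparisons 0 of 11 passed by limma-voom (2 each at an unadjusted p under 0.05, against 16.7% and 12.5% of all genes, and 2 and 0 by DESeq2). Leaving out ethanol rat 5 gave 1 call for withdrawal vs ethanol. Tgfbr2 overlapped widely between groups (30.9 to 42.1 CPM in control and 28.4 to 54.8 CPM in withdrawal rats). Without withdrawal rat 6 the SRF-MRTF and TGF-beta lists held 0 calls between withdrawal and control, and without surrogate variables 0 and 0 by limma-voom and by edgeR and 0 and 2 by DESeq2. The list medians by limma-voom were 0.24 and 0.16 without surrogate variables, against 0.19 and 0.17 with them. The SRF-MRTF count also moved upward, to 4 without withdrawal rat 1, 3 without rat 4 and 2 without rat 5. The other 4 CCN genes (Ccn3, Ccn4, Ccn5, Ccn6) gave 0 calls in each comparison by limma-voom. At an unadjusted p under 0.05 there were 1, 1 and 0 for withdrawal vs control, withdrawal vs ethanol and ethanol vs control, against 19.7%, 16.7% and 12.5% of all genes. Leaving out ethanol rat 1, withdrawal rat 2 or withdrawal rat 4 gave 1 call for withdrawal vs control, and leaving out ethanol rat 1 or 5 gave 1 for withdrawal vs ethanol. Ccn3 was the most abundant of them, at 91.9 CPM in control, 85.9 in ethanol and 71.1 in withdrawal rats.

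None of 13 immediate early genes passed in a comparison by limma-voom or edgeR, and DESeq2 called 1, higher in ethanol than in control. Without ethanol rat 5 limma-voom called 2 for withdrawal vs control, and without withdrawal rat 1 it called 1 for ethanol vs control. Between ethanol and control, however, all 13 had a log2 fold change above 0 (median 0.70, against 0.00 over all genes), 10 at an unadjusted p under 0.05 (12.5% of all genes), with q between 0.168 and 0.612. Ethanol rat 5 carried much of this, as the median was 0.23 without it and 0 of 13 were at an unadjusted p under 0.05, while all 13 stayed above 0. Fos was 67.9 CPM in that rat, 8.57 to 17.2 in the other ethanol rats and 7.99 to 10.3 in control rats. Between withdrawal and control 11 of 13 were above 0 (median 0.31, 2 at an unadjusted p under 0.05, against 19.7% of all genes), and between withdrawal and ethanol 2 of 13 (median −0.38, 2 at an unadjusted p under 0.05, against 16.7% of all genes). Single rats moved the withdrawal vs ethanol values. Without ethanol rat 5, 9 of 13 were above 0 (median 0.06, 1 at an unadjusted p under 0.05). Without ethanol rat 2 it was 0 of 13 (median −0.65, 9 at an unadjusted p under 0.05). Without surrogate variables the 3 medians were 0.39, 0.33 and −0.10.

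**Figure D4:**
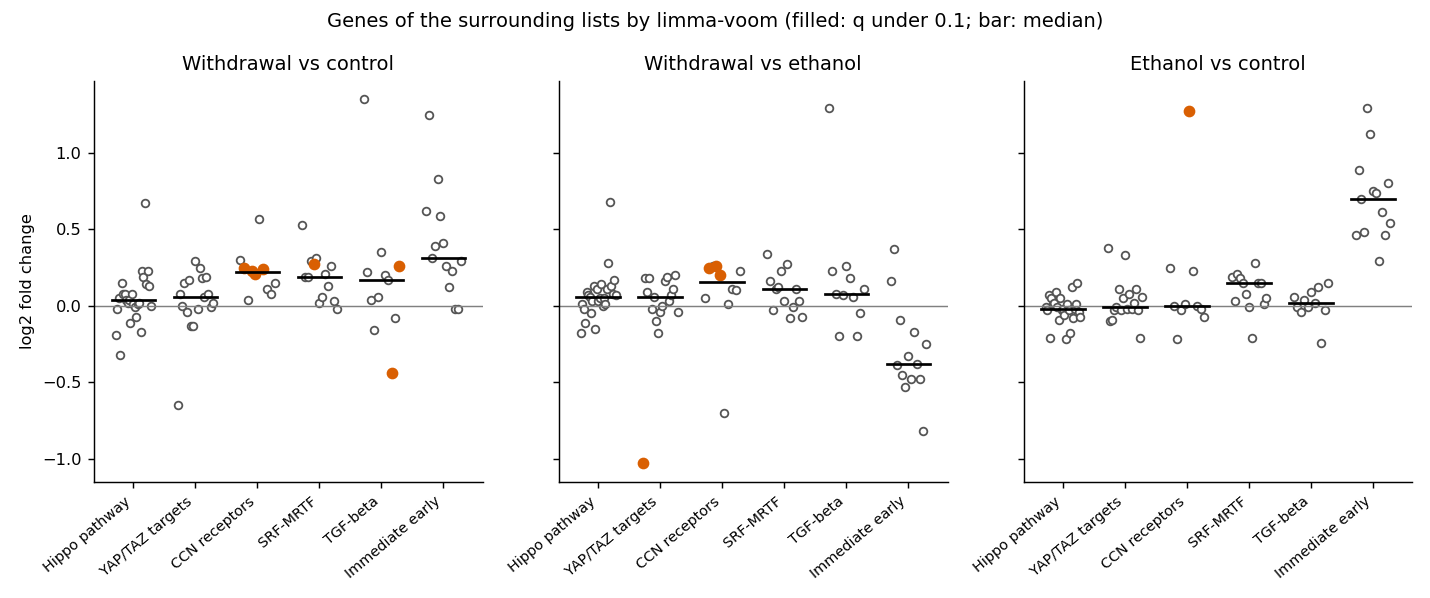
Log2 fold change (y axis) of each gene of 6 lists (x axis) in the 3 comparisons, by limma-voom with 3 surrogate variables, with the list median as a bar and genes at q under 0.1 filled. The Hippo pathway and target genes centre on 0 in all 3 panels, 4 CCN receptors are filled in withdrawal vs control, and all 13 immediate early genes lie above 0 in ethanol vs control without passing.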

How the data were processed

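Stranded, paired-end RNA-Seq libraries were made from 18 rats. Per the file headers, the authors deposited counts per gene, not normalized, made with featureCounts 1.5.0 (reversely stranded, exon features of Rnor_6.0, pairs mapping to different chromosomes not counted), after alignment with STAR 2.5.2a as stated in the study's methods. The counts carry no normalization, and no column of another sample was present. Gene IDs were named from the GRCr8 RefSeq table (29322 of 38445 matched), and 1 listed target, Arhgef17, was not analysed here.

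Counts were scaled by TMM (edgeR 4.0.16), genes above 0.5 CPM in at least 1 rat were kept, and 3 surrogate variables (sva 3.50.0, log2 CPM with prior count 2) entered a limma 3.58.1 voom fit of all 3 groups in R 4.3.3. The two-sided p-values were adjusted by Benjamini-Hochberg over all genes within each comparison, and q under 0.1 was called. The fit was also run on simulated counts with a hidden factor balanced over the groups, unlike the index sets here. Nothing is read from that run. Correlations with marker sums were tested by 100000 permutations (numpy 2.4.6). The members and lists were chosen with earlier results of these data known. Named are the members, list genes called in any comparison, the 3 highest and 2 lowest genes per kb of the pathway and target lists, and the 5 genes most correlated with Ccn2, Ccn1 and Yap1, of which some are not reported here. Alternatives were other numbers of surrogate variables, edgeR, DESeq2 1.42.0, RLE scaling, other filters, quality weights, q under 0.05, models of the 2 groups compared, a replicate block and leaving out each rat. Depth was 30873228 to 42679748 counts on genes per rat. The p-values of the main fit measure the spread between single animals that was left after the 3 surrogate variables. Lats2 in withdrawal vs control had an SE of 0.05 with and 0.15 without them. No 2 libraries of a group agreed within sampling noise.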

Additional observations from a re-analysis of the deposited data

Results flagged for a closer look

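In 126 groups of 6 rats (the 42 genes whose values are printed, in each of the 3 groups), 11 values stood apart from their group by more than Dixon's 95% limit for the gap to the next rat, and chance flags about 1 in 20 such groups. Withdrawal rat 5 gave 4 of them. In that rat Itgb1 was 146 CPM (gap 0.663 of the group's range), Fn1 246 CPM (0.750) and Ltbp2 42.7 CPM (0.950), each the highest, while Gfap was the lowest at 639 CPM (0.765). It was also the rat highest for Ccn2, Amotl2 and the fibroblast and meningeal markers. Fos was 67.9 CPM in ethanol rat 5 (0.854) and 26.6 CPM in withdrawal rat 1 (0.770), the highest of their groups.

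Among control rats Wwtr1 was 7.78 CPM (0.626) and Sft2d2 17.0 CPM (0.663) in rat 1, the highest. Control rat 6 was the lowest for Taok2, at 202 CPM (0.738), and for Ccn3, at 71.6 CPM (0.666). Nf2 was lowest in ethanol rat 1, at 132 CPM (0.686).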

How the results depend on the processing

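Of the 24 member fold changes (8 genes in 3 comparisons), 745 of 752 values under the alternatives stayed within 1 SD of log2 CPM within groups. That SD was 0.14 for Amotl2 up to 1.18 for Ccn1, wider than the SEs of the fold changes, so the count does not show that values were stable. For Ccn1 in withdrawal vs ethanol all 32 counted as within it, though they ran from −2.07 to 0.19. Of the 24, 8 took the other sign under at least 1 alternative. Ccn2 of withdrawal vs control stayed between 0.53 (5 surrogate variables) and 1.35 (edgeR without surrogate variables), whereas Ccn1 ranged from −0.40 (5 surrogate variables) to 1.51. Counts of genes called are given next in the order members, 42 pathway and target genes, 10 CCN receptors, and only where they moved by more than 1.5 times. Between withdrawal and control (2, 0 and 4 as reported), members gave 0 without surrogate variables by limma-voom or edgeR and 1 by DESeq2, without a filter and at q under 0.05. Pathway and target genes gave 1 with 4 or 5 surrogate variables and 2 with quality weights, and receptors gave 0 without surrogate variables by limma-voom or edgeR and 2 in the fit of 2 groups. Between withdrawal and ethanol (0, 1 and 3), members gave 1 with 5 surrogate variables. Pathway and target genes gave 2 with 4 surrogate variables, by DESeq2 and with the filter in 6 rats, 3 with 5 surrogate variables, 4 with quality weights, and 0 at q under 0.05, in the fit of 2 groups and within the second index set. Receptors gave 1 without surrogate variables by limma-voom or edgeR, without a filter and at q under 0.05, and 0 in the fit of 2 groups and within the second index set. Between ethanol and control (0, 0 and 1), members gave 1 in the fit of 2 groups and 2 by DESeq2, and pathway and target genes gave 1 by DESeq2. The SRF-MRTF count of withdrawal vs control (1) was 3 with 4 surrogate variables and with quality weights, and 0 with 2 surrogate variables and in the fit of 2 groups. The TGF-beta count (2) was 1 with 5 surrogate variables and in the fit of 2 groups. Immediate early genes (0 in each comparison) gave 6 for withdrawal vs ethanol with 5 surrogate variables, 2 for withdrawal vs control with a replicate block, and 1 for ethanol vs control with 5 surrogate variables and with quality weights. The cause of these shifts was not tested.

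Leaving out each rat in turn gave 0 to 3, 0 to 2 and 0 to 6 calls for withdrawal vs control, 0 to 0, 0 to 4 and 0 to 4 for withdrawal vs ethanol, and 0 to 0, 0 to 0 and 0 to 1 for ethanol vs control. Withdrawal rat 6 was the rat without which members and receptors gave 0 between withdrawal and control. Rats with the same replicate number in different groups are different animals. Their deviations from the group means correlated between −0.32 and 0.38, and the own number was the best match in 8 of 36 cases, so the numbers were not taken as pairs. With a replicate block, members gave 3 for withdrawal vs control and 1 for ethanol vs control. The replicate block left 1 pathway or target gene for withdrawal vs control and 0 for withdrawal vs ethanol, and 0 receptors for withdrawal vs ethanol and for ethanol vs control. Depth limits Itgb3, Ankrd1 and Ccn1, with as few as 7, 10 and 30 counts in a rat.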

Other observations

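The extremes of the members gathered in 2 withdrawal rats. Withdrawal rat 6 had the highest value of all 18 rats for 4 of the 8 genes (Yap1, Wwtr1, Tead1 and Lats2), and withdrawal rat 5 for 2 (Ccn2 and Amotl2). The members did not move as one set across rats. Over the 18 rats r of log2 CPM was 0.79 between Yap1 and Tead1 and 0.82 between Yap1 and Ajuba, but −0.06 between Yap1 and Ccn2 and 0.05 between Yap1 and Ccn1. Ccn1 and Ccn2 had r = 0.57 with each other, and the inhibitors Lats2 and Amotl2 had r = −0.79 (−0.58, −0.79 and −0.87 within control, ethanol and withdrawal rats). These values describe shared libraries and carry no test.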
